A study of Homo sapiens with 4 samples.

Results

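The S100 genes encode small calcium-binding proteins, and 10 of them (S100A2, S100A4, S100A6, S100A8, S100A9, S100A11, S100A13, S100A14, S100A16 and S100P) are described here by their gene symbols among the 26255 symbols of the deposited table. Expression was measured by RNA-seq in A549, a human lung adenocarcinoma cell line, with 4 libraries and 1 library per group. The acinar tumor and solid tumor libraries came from areas of A549 tumors grown in mice, cut out by laser microdissection and named for the gland-like (acinar) and sheet-like (solid) growth patterns of lung adenocarcinoma. The mix culture and single culture libraries came from GFP-labelled A549 cells sorted out of 3D colonies, grown with cancer-associated fibroblasts (CAFs) in the mix culture and without them in the single culture. No library has a biological replicate, all 4 come from 1 cell line, and the sources used here do not give the mouse strain, the origin of the CAFs or whether the tumor areas share an animal. Differences are therefore between libraries, and no p-value is given.

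S100 proteins form dimers that open a binding surface when calcium rises, and each then docks onto its own partners, such as annexins, myosin heavy chains or ezrin. They have no enzyme activity of their own. Several leave the cell without a signal peptide and act on receptors such as RAGE and TLR4. In lung adenocarcinoma S100A4 and S100P are known for their link with invasive growth, whereas S100A8 and S100A9 together make calprotectin, best known as a protein of neutrophils.

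RefSeq promoters (GRCh38.p14) were matched for 10 of 10 members. The 250 bases before the annotated start are shown for the 4 members whose tumor values lay farthest above the culture values, S100A14, S100P, S100A4 and S100A6, and for S100A9, which lay the other way. They run 5′ to 3′ on the gene's strand. S100A14 is at chr1:153616326-153616575 on the minus strand, S100P at chr4:6693628-6693877 on the plus strand, S100A4 at chr1:153545807-153546056 on the minus strand, S100A6 at chr1:153535992-153536241 on the minus strand and S100A9 at chr1:153357604-153357853 on the plus strand. Capitals mark matches, on either strand, to 5 motifs. The TATA box was searched as TATAAA. The AP-1 element was searched as TGANTCA. The SMAD-binding element was searched as CAGAC. The core of the hypoxia response element was searched as ACGTG. The E-box bound by SNAI and ZEB factors was searched as CACCTG.
S100A14: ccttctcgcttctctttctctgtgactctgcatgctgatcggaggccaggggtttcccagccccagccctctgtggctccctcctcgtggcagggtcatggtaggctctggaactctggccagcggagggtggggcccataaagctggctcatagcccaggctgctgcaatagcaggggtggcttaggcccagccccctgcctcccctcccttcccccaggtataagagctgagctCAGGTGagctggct
S100P: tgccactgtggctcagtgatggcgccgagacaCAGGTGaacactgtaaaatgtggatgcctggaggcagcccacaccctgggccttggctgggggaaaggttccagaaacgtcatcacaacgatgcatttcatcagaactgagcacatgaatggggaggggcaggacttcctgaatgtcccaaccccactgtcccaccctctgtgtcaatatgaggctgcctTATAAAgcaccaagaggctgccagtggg
S100A4: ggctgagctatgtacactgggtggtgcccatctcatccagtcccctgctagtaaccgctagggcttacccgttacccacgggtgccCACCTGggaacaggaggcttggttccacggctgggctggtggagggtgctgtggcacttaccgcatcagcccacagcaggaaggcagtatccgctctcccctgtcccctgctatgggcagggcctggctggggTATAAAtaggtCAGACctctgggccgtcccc
S100A6: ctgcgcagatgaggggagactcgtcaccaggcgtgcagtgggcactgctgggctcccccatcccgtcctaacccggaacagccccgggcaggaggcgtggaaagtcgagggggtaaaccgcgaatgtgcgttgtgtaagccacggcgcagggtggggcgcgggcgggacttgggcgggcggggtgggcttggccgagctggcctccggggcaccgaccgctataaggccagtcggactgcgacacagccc
S100A9: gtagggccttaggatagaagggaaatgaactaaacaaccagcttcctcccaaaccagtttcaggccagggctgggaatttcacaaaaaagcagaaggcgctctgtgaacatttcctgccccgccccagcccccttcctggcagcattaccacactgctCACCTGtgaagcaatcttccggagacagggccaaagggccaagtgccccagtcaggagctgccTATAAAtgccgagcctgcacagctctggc

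S100P, S100A4 and S100A9 each had TATAAA, with its first base 28, 31 and 29 bases before the start in the order named. The motif is present in 10.7% of the 35097 RefSeq promoter windows of this length. S100A4 also had CAGAC beginning 20 bases before the start, a motif in 38% of all windows. CACCTG or its reverse complement lay 14 bases before the start in S100A14, 218 in S100P, 164 in S100A4 and 92 in S100A9, against 17.5% of all windows. No 2 of these matches overlap, and none of the 5 windows held TGANTCA (6.57% of all windows) or ACGTG (18.5%). The S100A9 window thus shares its TATA box and E-box matches with S100P and S100A4, and its values ran the other way. Matches are descriptions of letters and not of binding.

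Values are scaled counts, the deposited size-factor-normalised counts divided by 8.94, the same constant for all libraries, and not by gene length. The estimated depth was 6630000 fragments in the acinar tumor, 7270000 in the solid tumor, 12180000 in the mix culture and 10970000 in the single culture. All 10 members had whole estimated fragments in all 4 libraries. All 6 epithelial markers checked were above 2 scaled counts in each of the 4 libraries, which shows epithelial RNA but does not identify A549. KRT19, at 818 and 607 scaled counts in the acinar and solid tumors against 15.1 and 33.4 in the mix and single cultures, and EPCAM, at 28.1 and 20.3 in the acinar and solid tumors against 2.09 and 2.31 in the mix and single cultures, themselves differed widely between the settings. The 6 summed to 11993 and 10238 scaled counts in the acinar and solid tumors, against 5251 and 4715 in the mix and single cultures. In RNA taken from many cells together, fewer cells of a type and less RNA per cell cannot be told apart.

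The 10 genes together took up 1.15% of all estimated fragments in the acinar tumor (exact Clopper-Pearson 95% interval 1.14% to 1.16%) and 0.961% in the solid tumor (0.954% to 0.968%). In the mix culture they took up 0.186% (0.183% to 0.188%) and in the single culture 0.205% (0.203% to 0.208%). Both tumor libraries thus lay above both culture libraries. These intervals, like all others here, cover counting error only, since PCR copies cannot be told from separate molecules here.

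Divided by the median length of each gene's coding transcripts in GENCODE release 29, S100A6 (calcyclin) had the highest level of the 10 in every library. It stood at 9400 and 7504 scaled counts per kilobase in the acinar and solid tumors, against 1246 and 1476 in the mix and single cultures. Its share of the family's summed level per kilobase was 51.5%, 50.9%, 45.8% and 48.7% in the acinar tumor, solid tumor, mix culture and single culture. S100A4 (metastasin, also called fibroblast-specific protein) was the next, with 28.6% in each tumor, 15.9% in the mix culture and 21.3% in the single culture. S100A11 (calgizzarin) stood after S100A4 in both tumors and the single culture. In the mix culture it stood before S100A4, by a level per length 1.41 times as high (1.35 to 1.48).

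S100A16 and S100A13 held the next places of that order in all 4 libraries. In the solid tumor S100A13 and S100P could not be separated, with a ratio of their levels per length of 1.01 (0.951 to 1.07). S100P followed S100A13 by a clear gap in the acinar tumor (ratio 2.15, 2.01 to 2.30) and in the single culture (8.79, 7.41 to 10.5). S100P and S100A9 could not be ordered in either culture, where the ratio of S100A9 over S100P was 1.18 (0.915 to 1.51) in the mix culture and that of S100P over S100A9 was 1.27 (0.941 to 1.74) in the single culture. S100A14 and S100A2 came below S100P in both tumors, and S100A9 was the lowest member above 0 there. With the longest coding transcript of each gene as the length, S100P stood before S100A13 in the solid tumor.

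**Figure D1:**
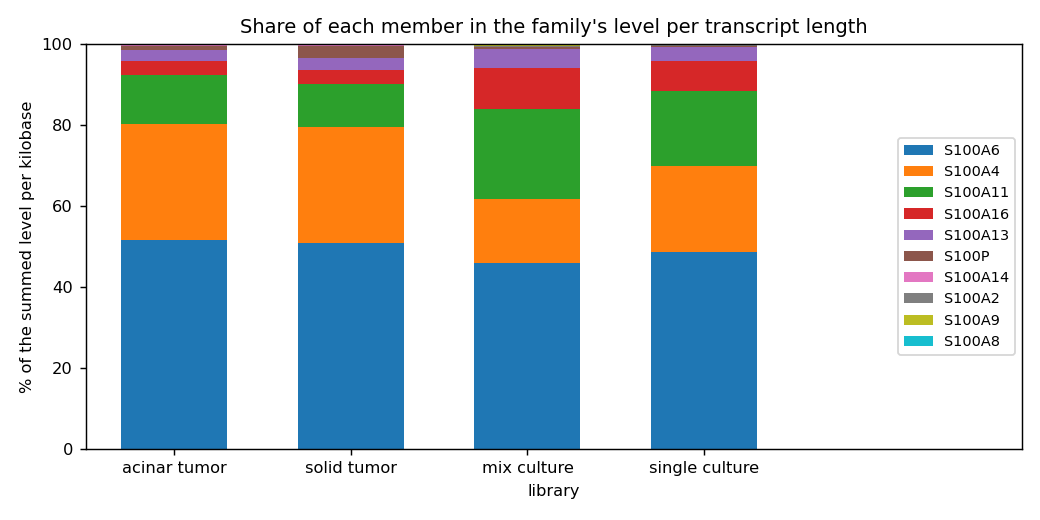
Stacked bars of each member's share, in percent, of the family's summed scaled counts per kilobase of median coding transcript in each library. S100A6 makes up 45.8% to 51.5% of every bar, and the S100A4 band is widest in the tumors, at 28.6%.

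The widest differences lay between the tumors and the cultures. S100A14 (48.4 and 76.8 scaled counts) and S100P (279 and 541) were well above the limit of counting in the acinar and solid tumors. In the cultures S100A14 was at or under that limit and S100P was low. S100A4 and S100A6 were several-fold higher in the tumors, and S100A9 was lower in them. A member was counted as different when every tumor and culture pair was past 2-fold on the log2(value + 1) scale, over genes that reached 1 scaled count in any library. By that rule 7 of the 9 measured members were higher in the tumors, where 9.67% of the 14561 genes tested were, and 1 was lower, where 8.22% of all genes were. S100A14 reached 1 scaled count only in the tumors, so it could not have been counted as lower. The members were also chosen with earlier results of these data known, and their difference from these shares was not tested. The median of the members' mean log2 ratios was 1.95, beside 0.02 over all genes. S100A8 was below the limit of 1 scaled count in all libraries. Xenograft growth, laser microdissection and the animal differ from the cultures together and cannot be told apart.

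S100A14, a member of epithelial sheets that forms a dimer with S100A16, had 48.4 scaled counts (312 fragments) in the acinar tumor and 76.8 in the solid tumor. It had 0.242 scaled counts (3 fragments) in the mix culture and 0.0889 (1 fragment) in the single culture. The tumors therefore stood far above both cultures, where the gene sat at or under the limit of 3 fragments. The ratio for the closest pair, acinar tumor over mix culture, was 200.3 (67.9 to 976).

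S100P, first found in placenta and a partner of ezrin, had 279 and 541 scaled counts in the acinar and solid tumors, against 15.0 scaled counts in both cultures (186 fragments in the mix culture and 169 in the single culture). The closest pair, acinar tumor over single culture, differed 18.6-fold (15.9 to 21.9), and the widest pair, solid tumor over mix culture, differed 36.1-fold. Both tumor values lay above both culture values, as in 39.8% of the 14561 genes tested, and the fold depended on which tumor library was used.

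S100A4 binds the heavy chain of non-muscle myosin and promotes filament disassembly. It had 2969 scaled counts in the acinar tumor and 2404 in the solid tumor, against 245 in the mix culture and 367 in the single culture. Every tumor value was at least 6.54-fold (6.32 to 6.77) above every culture value. S100A6, which binds calcyclin-binding protein and annexin A11, had 6289 and 5020 scaled counts in the acinar and solid tumors, against 833 and 988 in the mix and single cultures. Its closest pair differed 5.08-fold (4.98 to 5.19). The libraries of each setting thus lay close together in both genes, with a wide gap between the settings.

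S100A2, a nuclear member induced by p53 and p63 in squamous epithelia, was the lowest of the 7 in the tumor libraries. It had 13.8 and 9.93 scaled counts in the acinar and solid tumors, against 2.74 and 1.96 in the mix and single cultures, and its closest pair differed 3.63-fold (2.38 to 5.63). S100A13 takes part in the release of FGF1 and IL-1α, which also lack signal peptides. It had 264 and 240 scaled counts in the acinar and solid tumors, against 71.8 and 58.1 in the mix and single cultures, a closest pair of 3.34-fold (3.08 to 3.63). S100A11, a partner of annexin A1, had 1334 and 936 scaled counts in the acinar and solid tumors, against 360 and 332 in the mix and single cultures, a closest pair of 2.60-fold (2.50 to 2.70). Fragments of S100A11 could also match its pseudogene copies, so its assignment carries that uncertainty. S100A13 overlaps S100A1 and CHTOP on the opposite strand, and without a known strand setting fragments of the shared stretch cannot be assigned. The same limit holds for S100A6, which overlaps LOC124904423, and for S100A4, which overlaps LOC101928034, both on the opposite strand. S100A4 also overlaps S100A5 on the same strand.

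S100A16, the partner of S100A14, stood just outside the limit. It had 648 and 533 scaled counts in the acinar and solid tumors, against 286 and 233 in the mix and single cultures, and its closest pair differed 1.86-fold (1.78 to 1.95). Its tumor values both lay above both culture values, as in 39.8% of the 14561 genes tested. S100A14 and S100A16 thus went the same way by very different amounts.

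S100A9 was the member that went the other way, at 0.620 scaled counts (4 fragments) in the acinar tumor and 1.82 (13 fragments) in the solid tumor, against 7.97 (99 fragments) in the mix culture and 5.33 (60 fragments) in the single culture. Its closest pair, solid tumor and single culture, was 2.93-fold lower in the tumor (1.59 to 5.82). With a pseudocount of 5, S100A9 was no longer past 2-fold in every pair, and 6 members in place of 7 were higher. Its calprotectin partner S100A8 was listed at 0 in both tumors and had 2 fragments in the mix culture and 1 in the single culture, all at or under the limit of 3 fragments, which is 0.465, 0.420, 0.242 and 0.267 scaled counts in the acinar tumor, solid tumor, mix culture and single culture. No fold is given for S100A8.

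**Figure D2:**
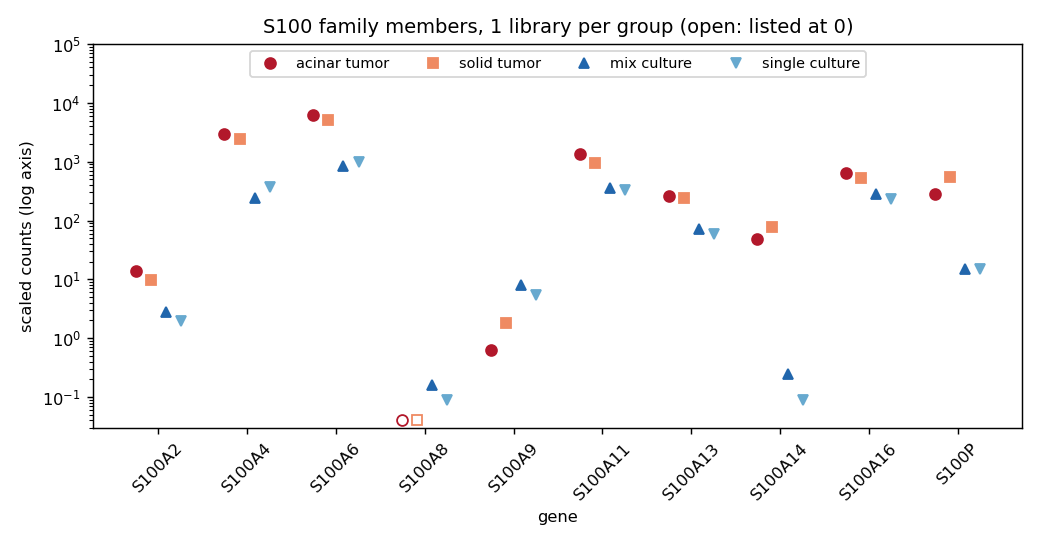
Scaled counts of each S100 member in each library on a log axis, 1 point per library, with open points at the bottom for values listed at 0. The acinar and solid tumor points lie above the mix and single culture points for every member but S100A8 and S100A9.

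Transcript length and markers of other cell types also moved with the setting. Over all genes the median log2 ratio of tumors over cultures was 0.15 for genes whose median coding transcript is under 800 bases (1824 genes) and -0.29 for those of 3000 bases or more (3453 genes). S100A2, S100A4, S100A6, S100A8, S100A9, S100A11 and S100A13 are under 800 bases by that measure. Among the 1824 short genes 12.1% were higher in every pair by the same rule and 5.48% were lower. Markers of myeloid cells and neutrophils summed to 145 and 239 scaled counts in the acinar and solid tumors, against 43.8 and 50.2 in the mix and single cultures, with 5 of 12 genes reaching 1 scaled count in any library. FCGR3B, MPO and FCN1, which define neutrophils and monocytes, were at 0 in all 4 libraries. CD68, at 113 and 175 scaled counts in the acinar and solid tumors against 26.8 and 29.5 in the mix and single cultures, and LYZ, at 23.9 and 49.4 in the acinar and solid tumors against 1.85 and 3.02 in the mix and single cultures, made up most of the difference in the sum. CD14, a monocyte marker, lay the other way and in the direction of S100A9, at 2.64 and 9.65 scaled counts in the acinar and solid tumors against 13.4 and 15.4 in the mix and single cultures.

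Fibroblast markers summed to 144 and 68.7 scaled counts in the acinar and solid tumors, against 48.0 and 46.4 in the mix and single cultures, with 8 of 12 reaching that level. LUM, at 55.4 and 19.6 scaled counts in the acinar and solid tumors against 0.0805 and 0 in the mix and single cultures, and TAGLN, at 47.4 and 8.81 in the acinar and solid tumors against 1.05 and 1.87 in the mix and single cultures, made up most of the difference in the sum. ACTA2, at 7.27 and 5.80 scaled counts in the acinar and solid tumors against 13.3 and 21.4 in the mix and single cultures, lay the other way. THY1 (2.01 and 1.33) and PDGFRA (1.13 and 1.96) had counts in the mix and single cultures and were at 0 in both tumors. PDPN was at 0 in all 4 libraries, DCN at 0.155 and 0.280 scaled counts in the acinar and solid tumors and at 0 in the mix and single cultures. Skin keratinocyte markers summed to 129 and 123 scaled counts in the acinar and solid tumors, against 70.9 and 69.9 in the mix and single cultures, with 3 of 9 reaching that level and KRT1, LOR and DSG3 at 0 in all 4 libraries. KRT10 made up most of each sum. It had 87.1 and 110 scaled counts in the acinar and solid tumors, against 69.0 and 67.6 in the mix and single cultures. TP63 had 38.3 and 12.2 in the acinar and solid tumors, against 1.69 and 2.31 in the mix and single cultures. Endothelial markers summed to 1.55 and 1.68 scaled counts in the acinar and solid tumors, against 0.483 and 0.533 in the mix and single cultures, and 0 of 5 reached 1 scaled count. The part of length and of these markers in the S100 differences was not tested. The host cells of the tumors are mouse cells, and the values stand under human symbols.

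The acinar tumor was next set against the solid tumor, which compares the growth patterns within the xenografts. S100A11, S100A2, S100A6, S100A4, S100A16 and S100A13 were higher in the acinar tumor by less than 1.5-fold each, and S100P and S100A14 were lower. No measured member of 9 was past 2-fold in either direction on the log2(value + 1) scale, where 1.98% of 13979 genes were higher and 2.55% lower. The members' median log2 ratio was 0.28, beside 0.01 over all genes. The counting interval of the fold lay above 1 for 6 members and below 1 for 2. Among the 12407 genes with whole fragments these shares were 18.4% and 16.7%. An interval clear of 1 shows only that 2 libraries differ by more than counting error.

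S100P differed the most among members with an interval clear of 1, being 1.94-fold lower in the acinar tumor (1.83 to 2.05), at 279 scaled counts in the acinar tumor against 541 in the solid tumor. S100A14 was 1.59-fold lower (1.38 to 1.83), at 48.4 scaled counts in the acinar tumor against 76.8 in the solid tumor. The 2 members with the widest gap between tumors and cultures were thus the ones with an interval below 1 in the acinar tumor over the solid tumor. S100A9, at 4 fragments in the acinar tumor and 13 in the solid tumor, had a fold of 0.341 with an interval that included 1 (0.0810 to 1.10).

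S100A11 was the most raised member, 1.42-fold higher in the acinar tumor (1.38 to 1.47) at 1334 scaled counts against 936 in the solid tumor. S100A2 was 1.39-fold higher with an interval just above 1 (1.01 to 1.93). S100A6 was 1.25-fold (1.24 to 1.27), S100A4 1.24-fold (1.21 to 1.26), S100A16 1.22-fold (1.16 to 1.27) and S100A13 1.10-fold (1.03 to 1.18) higher. The folds of these 6 thus ran from 1.10 to 1.42.

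The mix culture was set against the single culture, which compares A549 cells from colonies with and without CAFs. S100A4 and S100A6 were lower in the mix culture, while S100A9, S100A13, S100A16 and S100A11 were higher by at most 1.49-fold. None of the 8 measured members was past 2-fold, where 0.682% of 13485 genes were higher and 1.74% lower. The members' median log2 ratio was 0.21, beside 0.01 over all genes. The interval lay above 1 for 4 members and below 1 for 2, shares that were 23.4% and 20.4% among the 11831 genes with whole fragments. S100A8 and S100A14 were under 1 scaled count in both cultures and were not compared.

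S100A4 was lower in the mix culture, at 245 scaled counts against 367 in the single culture, a fold of 0.668 (0.637 to 0.700). S100A6 was 1.19-fold lower (1.15 to 1.22), at 833 scaled counts in the mix culture against 988 in the single culture. Both are members whose RNA was higher in the acinar tumor than in the solid tumor, a comparison that shares no library with this one. S100A9 was 1.49-fold higher in the mix culture (1.07 to 2.10), on 99 fragments against 60 in the single culture.

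S100A13 was 1.24-fold (1.12 to 1.37), S100A16 1.23-fold (1.17 to 1.29) and S100A11 1.09-fold (1.04 to 1.14) higher in the mix culture. S100P had 15.0 scaled counts in each culture, with a fold of 0.997 (0.805 to 1.24). S100A2 rested on 34 fragments in the mix culture and 22 in the single culture, and its fold of 1.40 had an interval that included 1 (0.795 to 2.51). S100A11, S100A13 and S100A16 were thus the members with an interval above 1 in both comparisons. Among genes with whole fragments, 18.4% had such an interval between the tumors and 23.4% between the cultures. The share of all genes with such intervals in both was not computed, so no reading is drawn from this overlap.

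**Figure D3:**
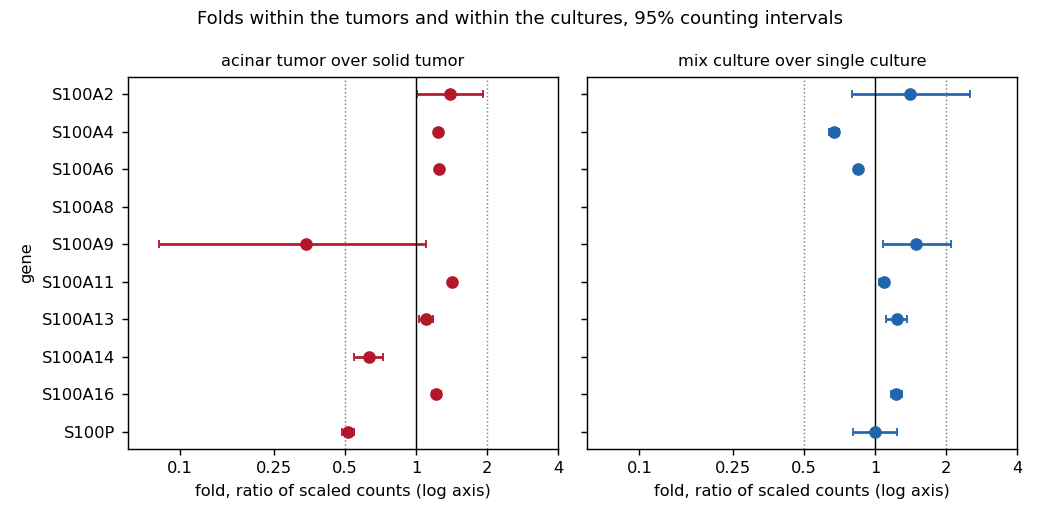
Ratio of scaled counts for each member, acinar tumor over solid tumor at the left and mix culture over single culture at the right, on log axes with 95% counting intervals and dotted lines at 0.5 and 2. The whole intervals of S100P and S100A14 lie left of 1 among the tumors, and those of S100A4 and S100A6 among the cultures. The points of S100A9 among the tumors (0.341) and S100P among the cultures (0.997) also lie left of 1, with intervals that include 1. Blanks are members with too few fragments.

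The remaining S100 genes were taken as a list of 11, of which 4 reached 1 scaled count in any library. S100A10, the annexin A2 partner that has lost calcium binding, was the abundant one, at 969 and 905 scaled counts in the acinar and solid tumors, against 423 and 380 in the mix and single cultures. It was 2.14-fold (2.06 to 2.22) higher in its closest pair. It was the only 1 of the 4 past 2-fold in every pair, where 9.67% of all genes were higher. S100A3, a member known from hair cuticle, had 59.6 and 30.9 scaled counts in the acinar and solid tumors, against 15.8 and 14.4 in the mix and single cultures, but its fragments were not whole in any library. S100A1, a member best known from heart muscle, and S100A5 rested on 17 fragments or fewer in each library. S100A7A, S100A7L2, S100A12, S100B and S100G were listed at 0 in all 4 libraries, and S100A7 and S100Z had at most 2 fragments in any library.

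Along chromosome 1, which holds all members but S100P, the measured genes from S100A6 through S100A5, S100A4, S100A3, S100A2, S100A16, S100A14 and S100A13 to S100A1 all had tumor values above both culture values. Of the 14561 genes tested, 39.8% met this looser criterion and 38.7% had both tumor values below both culture values. S100A1, S100A5 and S100A14 reached 1 scaled count only in the tumors, so they were measured only through the setting where they are high. The run is therefore a description and was not tested against these shares. S100A9 lies apart from this run, with S100A12, S100A8, S100A7A, S100A7L2 and S100A7 between it and S100A6. None of the genes between them reached 1 scaled count. On the other side of S100A9 lie S100A11 and S100A10. Both had tumor values above both culture values, with lowest log2 ratios of 1.37 and 1.10, so S100A9 had such genes on either side. The mean log2 ratio within the run ranged widely, with S100A14 at 5.74 next to S100A16 at 1.18. Of the 13 genes listed as neighbours outside the S100 clusters (around S100A1 on chromosome 1 and around S100P on chromosome 4), 12 were measured. Of these 1 was past 2-fold higher in every pair, where 9.67% of all genes were, and 0 were lower, where 8.22% of all genes were. Their median was 0.03. The 1 was SLC27A3, a fatty acid transport protein gene, at 12.7 and 12.03 scaled counts in the acinar and solid tumors, against 4.03 and 4.35 in the mix and single cultures.

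**Figure D4:**
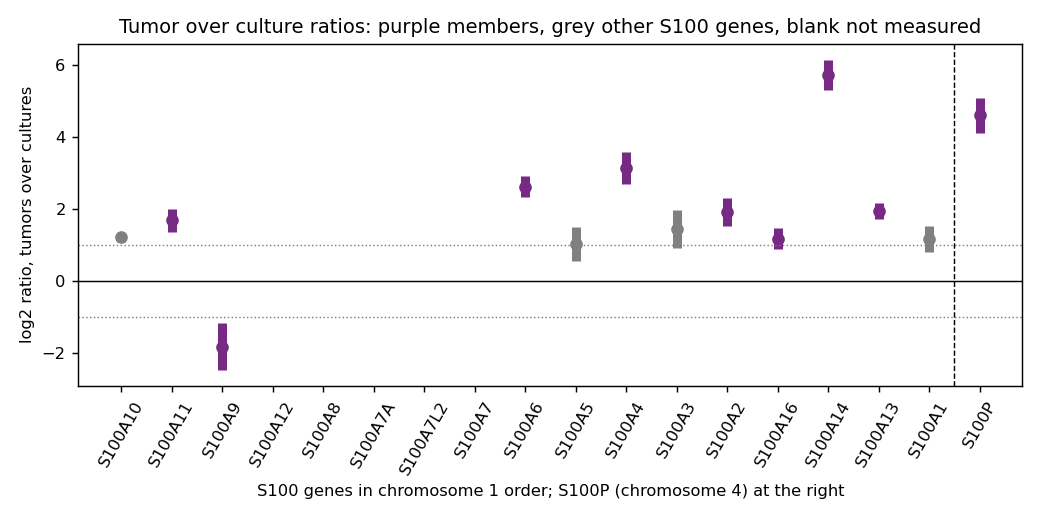
Tumor over culture log2(value + 1) ratios of the S100 genes in their order on chromosome 1, with S100P from chromosome 4 at the right, bars running from the lowest to the highest of the 4 pairs and dots at the mean. S100A14 (5.74) and S100P (4.61) are highest, S100A9 (-1.82) is below 0, and genes without a bar were not measured.

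Among 16 binding partners of S100 proteins, 1 was higher and 3 were lower in every tumor and culture pair past 2-fold, with a median of -0.16. Over all genes 9.67% were higher and 8.22% were lower, and the difference of the list from these shares was not tested. The one higher was EZR, encoding ezrin, the membrane linker that S100P binds. It had 1384 and 945 scaled counts in the acinar and solid tumors, against 375 and 320 in the mix and single cultures, 2.52-fold (2.43 to 2.62) higher in the closest pair. S100P and EZR were thus both higher in the tumors. Within the tumors EZR was 1.46-fold higher in the acinar one (1.42 to 1.51) and S100P was lower. Not every partner gene was higher in the tumors. S100PBP, encoding the S100P-binding protein, had 37.8 and 24.1 scaled counts in the acinar and solid tumors, against 33.5 and 29.5 in the mix and single cultures. IQGAP1, another partner on the list, had 425 and 371 scaled counts in the acinar and solid tumors, against 464 and 420 in the mix and single cultures.

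The partners past 2-fold lower were ANXA6, MYH10 and PPFIBP1. ANXA6, encoding the annexin A6 that several S100 proteins bind, had 11.0 and 24.3 scaled counts in the acinar and solid tumors, against 86.2 and 82.1 in the mix and single cultures. MYH10, encoding another non-muscle myosin heavy chain, had 32.7 and 32.4 scaled counts in the acinar and solid tumors, against 76.7 and 78.5 in the mix and single cultures. PPFIBP1, encoding the S100A4 partner liprin β1, had 46.5 and 42.2 scaled counts in the acinar and solid tumors, against 99.0 and 98.2 in the mix and single cultures. MYH9, whose non-muscle myosin heavy chain is the classical S100A4 partner, had 469 and 309 scaled counts in the acinar and solid tumors, against 926 and 763 in the mix and single cultures, a closest pair of 0.615-fold (0.590 to 0.641). The S100A4 values ran opposite to those of both partners between the settings.

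Other annexin partners lay the other way from ANXA6. ANXA2, the S100A10 partner, had 3173 and 2330 scaled counts in the acinar and solid tumors, against 1231 and 1277 in the mix and single cultures. ANXA1, the S100A11 partner, had 2028 and 1384 scaled counts in the acinar and solid tumors, against 1032 and 914 in the mix and single cultures. ANXA11, an S100A6 partner, had 329 and 290 scaled counts in the acinar and solid tumors, against 178 and 187 in the mix and single cultures. None of these 3 was past 2-fold in every pair. CACYBP, the S100A6 partner that takes part in protein turnover, had 47.1 and 45.6 scaled counts in the acinar and solid tumors, against 82.7 and 62.1 in the mix and single cultures. Within the tumors 1 of the 16 partners was past 2-fold lower in the acinar tumor, ANXA6, at 11.0 scaled counts against 24.3 in the solid tumor. None was higher, and the list median was 0.16. Over all genes 2.55% were lower and 1.98% higher. Within the cultures 0 of 16 passed in either direction, where 0.682% of all genes were higher and 1.74% lower.

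Of 6 receptor genes for extracellular S100 proteins, 5 were measured. MCAM was the 1 past 2-fold lower in every tumor and culture pair, where 8.22% of all genes were. MCAM, a cell adhesion molecule that binds S100A8 and S100A9, had 1.09 and 1.12 scaled counts in the acinar and solid tumors, against 15.0 and 9.24 in the mix and single cultures, so it lay in the same direction as S100A9. AGER, encoding RAGE, had 6.20 and 5.03 scaled counts in the acinar and solid tumors, against 4.99 and 6.13 in the mix and single cultures, and TLR4 stood between 7.41 and 16.4 in the 4 libraries. Of the 3 genes tied to leaderless release, FGF1 and IL1A, whose products leave with S100A13, had at most 5 fragments in any library. SYT1, encoding the synaptotagmin of the same complex, had 5.12 and 1.96 scaled counts in the acinar and solid tumors, against 24.1 and 43.4 in the mix and single cultures. It was past 2-fold lower in every tumor and culture pair, and past 2-fold higher in the acinar tumor over the solid tumor at 2.61-fold (1.36 to 5.29), on 33 fragments against 14 in the solid tumor.

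Among 11 transcription factor genes known to act on S100 genes, 3 were past 2-fold higher in every tumor and culture pair and 0 lower, with a list median of 0.12, where 9.67% of all genes were higher and 8.22% lower. KLF4, an epithelial differentiation factor, had 276 and 173 scaled counts in the acinar and solid tumors, against 14.6 and 16.8 in the mix and single cultures, 10.3-fold (8.82 to 12.05) in the closest pair. TP63, which acts on S100A2, had 38.3 and 12.2 scaled counts in the acinar and solid tumors, against 1.69 and 2.31 in the mix and single cultures. CEBPA, a myeloid and liver factor, was 2.25-fold (1.81 to 2.81) higher in its closest pair. TP63 was also the 1 of 11 past 2-fold higher in the acinar tumor over the solid tumor, where 1.98% of all genes were. Its fold was 3.15 (2.46 to 4.07), and S100A2 itself was 1.39-fold higher. STAT3, a factor acting on S100A8 and S100A9, had 154 and 131 scaled counts in the acinar and solid tumors, against 268 and 313 in the mix and single cultures.

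**Figure D5:**
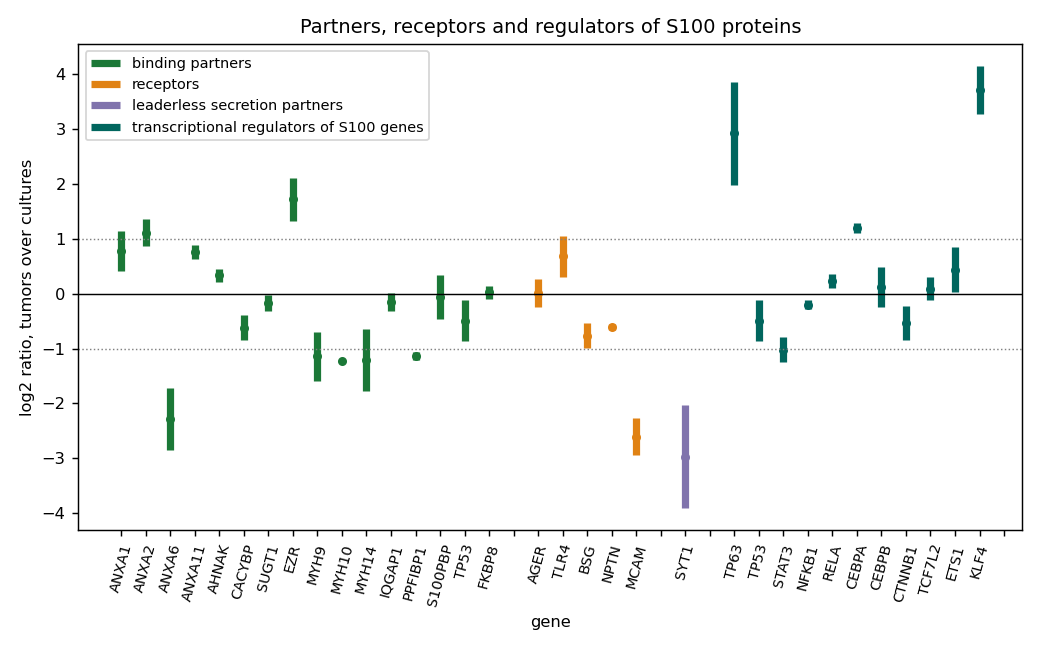
Tumor over culture log2(value + 1) ratios of the measured partner, receptor, secretion and regulator genes, bars from the lowest to the highest of the 4 pairs, dots at the mean. KLF4, TP63, EZR and CEBPA lie wholly above the 2-fold line and ANXA6, MYH10, PPFIBP1, MCAM and SYT1 wholly below it.

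S100A14 had the widest range of the members over the 4 libraries, 6.16 on the log2(value + 1) scale. The 5 genes nearest to its pattern, by Euclidean distance of centred log2 values over the 4 libraries among the 12136 genes that reached 5 scaled counts in any library, were USH1C (0.41), TIAF1 (0.47), SDCBP2 (0.51), SPNS2 (0.59) and PIP (0.60). USH1C, encoding the scaffold protein harmonin, had 76.3 and 125 scaled counts in the acinar and solid tumors, against 1.05 and 1.42 in the mix and single cultures. Of the 12136 genes, 26 lay within a distance of 1 over these 4 libraries.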

How the data were processed

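The libraries were prepared from A549 RNA with Illumina's TruSeq kit, per the labels' protocols. Each sample's title gave its group, and Mix_culture was taken to be the culture with CAFs. The submitters' processing notes list, without roles, the build hg19 and Cuffdiff 2.2.1, TopHat2 2.0.13, SAMtools 1.0 and Bowtie2 2.2.3. No source used here gives the annotation or the strand setting. The authors deposited 1 signal value per gene and library, which the file header calls raw. Within 0.05 of a fragment, 90.0% to 91.2% of values were whole multiples of 1 step per library (1.39 in the acinar tumor, 1.25 in the solid tumor, 0.720 in the mix culture and 0.795 in the single culture). Estimated fragments are values divided by that step.

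Dividing all values by 8.94 gave scaled counts and kept the authors' scaling. Ratios are log2((value + 1)/(value + 1)), which understates differences of low genes, over genes that reached 1 scaled count. Folds are plain ratios with exact conditional binomial (Clopper-Pearson) 95% intervals on fragments, and 3 fragments is the limit of counting. With 1 library per group the comparisons within a setting have no replicates. No test was run between tumors and cultures, since the libraries of each setting are different groups and not replicates. Code was tested on simulated data and run in Python 3.11.15 with scipy 1.17.1. Pseudocounts, filters, scalings and left-out libraries were varied. The members, 7 gene lists (67 of 67 entries matched) and 5 marker lists (44 of 44) were chosen with earlier results of these data known. Named genes were all members, list genes past 2-fold or binding a member, and the 5 genes nearest to the member of widest range; AGER, TLR4, STAT3, TCHH, HRNR, FGF1, IL1A, the single markers and the other S100 genes given with values were named after their values were seen.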

Additional observations from a re-analysis of the deposited data

How the results depend on the processing

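No paired analysis was possible because each group has 1 library, and no result has a test across samples. Alternatives were pseudocounts of 0.1 and 5, no filter or a filter of 5 scaled counts, 3 other scalings and undivided values. In the 3 comparisons no member's log2 ratio changed sign under any of them. One member became past 2-fold lower in the acinar tumor with a pseudocount of 0.1 or undivided values (1 in each, S100A9, at -1.41 and -1.40) and with upper quartile scaling (1, S100P, at -1.03), and upper quartile scaling gave the tumor median as 0.21. A pseudocount of 5 left 0 members past 2-fold lower in every tumor and culture pair. The median in the cultures was 0.15 with no filter and 0.12 with a filter of 5 scaled counts, since members entered or left it. Leaving out 1 library in turn, an alternative chosen after seeing the data, gave 7 to 8 members higher (8 without the solid tumor or the mix culture, S100A16 joining) and 1 lower in the tumors, with a median of 1.80 to 2.15. Over all genes, a pseudocount of 0.1 gave 478 higher and 692 lower in the acinar tumor (277 and 357 with 1) and 192 and 522 in the mix culture (92 and 234), and one of 5 gave 114 and 101, 33 and 73, and for tumors over cultures 864 and 774 (1408 and 1197). Undivided values gave 477 and 688, and 190 and 513, and a filter of 5 scaled counts 203 lower in the acinar tumor. Depth limits S100A8 and S100A14 in the cultures and S100A9 in the tumors, all at few fragments.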

Other observations

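Of the 7 fused-type S100 genes, which encode large barrier proteins of skin that carry an S100 domain, 3 reached 1 scaled count in any library. FLG, encoding filaggrin, had 0.173 and 0.743 scaled counts in the acinar and solid tumors, against 5.65 and 8.19 in the mix and single cultures, with fragments that were not whole. It was the 1 of the 3 past 2-fold lower in every tumor and culture pair, where 8.22% of all genes were. TCHH, encoding trichohyalin, had 1.86 and 1.40 scaled counts in the acinar and solid tumors, on 12 and 10 fragments, against 0.242 and 0.178 in the mix and single cultures. HRNR, encoding hornerin, stood between 1.82 and 2.79 scaled counts in the 4 libraries. FLG thus lay in the direction of S100A9 and TCHH in that of the other S100 members.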
